A study of Mus musculus with 4 samples.

Results

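The genes described here encode 6 secreted angiogenic or vasoactive factors and 1 secreted lipase inhibitor. They were grouped as targets of hypoxia-inducible factors (HIF), and whether each is one was not tested. They are Vegfa, Vegfb, Vegfc, Pgf, Adm, Edn1 and Angptl4, and were chosen by name with earlier results of these data known. They were found by taking every probe set whose single gene symbol was one of these, which gave 12 probe sets for 7 of the 18194 genes named on the array. The VHL protein picks out hydroxylated HIF alpha subunits for ubiquitination and destruction, so cells without it keep HIF active in the presence of oxygen. Vegfa, Vegfb, Vegfc and Pgf are members of the vascular endothelial growth factor family, which act on receptor tyrosine kinases of blood and lymphatic endothelium. Adrenomedullin, from Adm, widens vessels and tightens the endothelial barrier, and endothelin 1, from Edn1, constricts them. Angptl4 encodes an inhibitor of lipoprotein lipase that is also a target of peroxisome proliferator-activated receptors (PPAR).

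RNA came from scraped colon mucosa of 129S6/SvEv mice aged 5 weeks, and 1 Affymetrix mouse array stood for each of 4 genotypes. The VhlF/F array carried floxed Vhl, the VhlΔIE array an intestine-specific knockout of Vhl, and VhlF/F/Apcmin/+ and VhlΔIE/Apcmin/+ were the same with the Apcmin/+ allele, which gives intestinal tumours. The design text names 4, 3, 3 and 5 mice for VhlF/F, VhlΔIE, VhlF/F/Apcmin/+ and VhlΔIE/Apcmin/+, and does not say whether their RNA was pooled. All 4 genotypes carry floxed Vhl alleles, and the promoter that drives Cre is not given in the sources used here. The labels describe the knockout as specific to the intestine, and scraped mucosa also holds vessels, immune cells and muscle. In such bulk RNA, a change in the number of cells of a type and a change in RNA per cell cannot be told apart. No genotype was replicated, so no value has an error, no difference was tested, and the number of arrays limits the precision. Values are on the log2 scale as deposited after RMA, differences are 1 array minus another, and 1 unit corresponds to 2-fold.

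The arrays showed the knockout and some differences that no genotype label names. Vhl itself differed by -1.36 in VhlΔIE and by -1.61 in VhlΔIE/Apcmin/+, each against the floxed array of the same Apc status. On the 4 Cre control probe sets the knockout arrays gave 7.41 to 9.95 and the floxed arrays 2.97 to 4.45. Xist, which silences an X chromosome in females, stood at 11.37 and 11.83 in the floxed arrays but at 5.58 and 6.25 in the knockout arrays. The Y-linked gene Eif2s3y read 8.58 in VhlF/F, 7.27 in VhlF/F/Apcmin/+ and 8.78 and 8.80 in the knockout arrays, so the floxed arrays held Y-linked RNA as well. Sex makeup and Vhl status cannot be told apart. The 14 clock genes had median Vhl differences of -0.54 and -0.54 without and with Apcmin/+. They ran from -3.51 and -2.68 for Dbp to 1.51 and 1.58 for Npas2. Clock state and Vhl status cannot be told apart either. The 8 hepatocyte markers averaged 8.70 in VhlF/F and 5.32 to 5.51 in the other 3 arrays, and Alb, the most abundant plasma protein of the liver, read 11.53 and 6.10 to 7.24. The 8 colon epithelial markers averaged 12.74 to 12.90 over the 4 arrays, among them Epcam at 13.87 to 13.91, Krt8 at 13.97 to 14.07 and Car1 at 13.41 to 13.79. Of these 8 none was 2-fold apart for Vhl deletion, and Car1, the chloride exchanger Slc26a3 and the transcription factor Cdx2 differed by -0.33, -0.69 and -0.62 without and by -0.30, -0.76 and 0.67 with Apcmin/+.

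The start sites of the 3 genes whose levels followed Vhl status are shown because HIF binds a short core, written ACGTG or GCGTG, in the hypoxia response elements of its targets. The 250 bases before the annotated start of each gene are printed 5′ to 3′ in the direction of transcription, from RefSeq on GRCm38.p6, with matches to either core on either strand in capitals. The windows are chr17:46032378-46032627 on the minus strand for Vegfa, chr7:110627407-110627656 on the plus strand for Adm and chr13:42301226-42301475 on the plus strand for Edn1.
Vegfa: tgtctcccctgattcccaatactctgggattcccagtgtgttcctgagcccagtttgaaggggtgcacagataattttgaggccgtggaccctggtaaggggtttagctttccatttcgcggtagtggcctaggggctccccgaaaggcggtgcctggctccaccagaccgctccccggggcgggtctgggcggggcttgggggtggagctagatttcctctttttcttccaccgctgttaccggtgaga
Adm: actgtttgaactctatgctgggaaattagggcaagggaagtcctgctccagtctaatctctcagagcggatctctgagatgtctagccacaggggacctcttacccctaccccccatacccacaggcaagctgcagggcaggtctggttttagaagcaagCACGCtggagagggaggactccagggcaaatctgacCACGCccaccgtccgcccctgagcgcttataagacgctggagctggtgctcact
Edn1: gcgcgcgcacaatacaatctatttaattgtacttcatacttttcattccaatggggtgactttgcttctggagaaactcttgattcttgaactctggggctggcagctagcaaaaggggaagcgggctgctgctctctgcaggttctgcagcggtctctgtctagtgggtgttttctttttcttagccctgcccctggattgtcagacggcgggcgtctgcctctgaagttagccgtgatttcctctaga
The core GCGTG was found at 2 places before the Adm start, both on the opposite strand and so printed as its reverse complement. Their first bases as printed lie 90 and 54 bases before the start. No match lay in the printed Vegfa and Edn1 stretches. The windows searched ran from 250 bases before to 50 bases after a start, and in Edn1 the core ACGTG was met on the opposite strand, with its first printed base at position 22 when the start counts as 1. It is shown with its neighbours, chr13:42301487-42301511 on the plus strand, in capitals.
Edn1 match: tctctggctgCACGTtgcctgtggg

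Of the 7 genes, 6 had at least 1 window in the RefSeq table, and Vegfa and Pgf had 2 each. The second Vegfa window, chr17:46025114-46025413 around a start inside the gene, held GCGTG 218 bases and ACGTG 211 bases before that start, on opposite strands. Vegfb held GCGTG at 2 places, 237 and 81 bases before its start, and Pgf held it 124 bases before its first start. Vegfc and the second Pgf window held neither core. Of all 32851 windows of this length, 19.6% held ACGTG, 32.4% held GCGTG and 43.8% held at least 1 of them. At least 2 matches of GCGTG, as in Adm and Vegfb, were found in 11.1% of windows. The palindrome CACGTG, which holds ACGTG on both strands and was counted on both, was found in 7.15% of windows. A match is a description of the letters, and a window without one says only that they are not in that stretch.

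**Figure D1:**
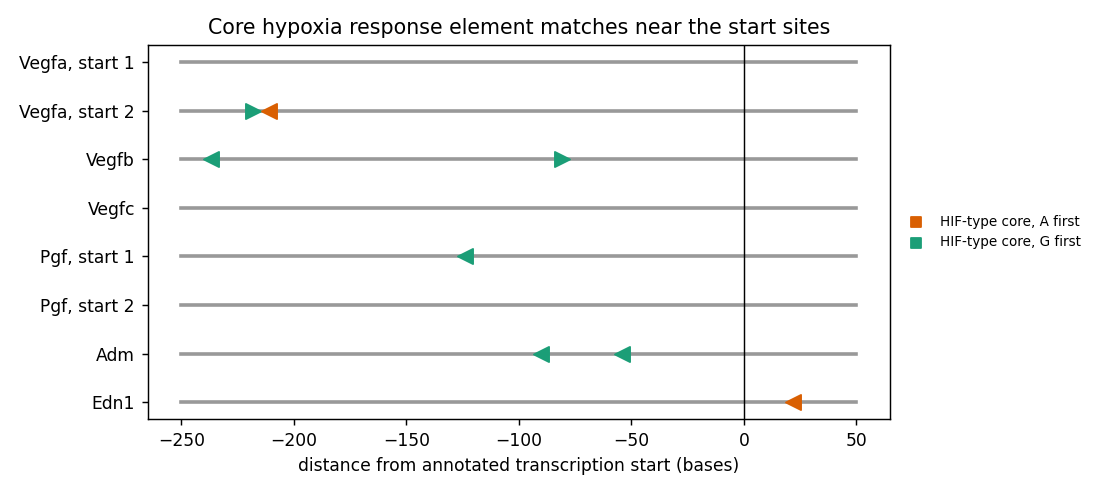
Matches to the HIF core in the RefSeq start site windows of 6 of the 7 genes, from 250 bases before to 50 bases after each annotated start (x axis, in bases). Each grey line is 1 window, orange and green mark ACGTG and GCGTG, and a triangle points right for the transcribed strand and left for the opposite strand. Adm has 2 matches before its start, Edn1 has 1 after it, and the first Vegfa window has none.

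Vegfa and Adm were higher and Edn1 was lower in both knockout arrays, and the other members differed by under 0.5 on the log2 scale. Taking for each gene the probe set with the highest mean, 6 of the 7 members passed a floor (a value of 6 or more on any of the 4 arrays) and Pgf did not. Without Apcmin/+, 2 of these 6 were at least 2-fold higher in the knockout, against 2.27% of all 11871 genes that reached this floor. With Apcmin/+ the same 2 were higher, against 2.82%. Edn1 was the 1 member at least 2-fold lower in each, against 1.6% of genes without and 1.52% with Apcmin/+. In both comparisons together, 1.58% of genes were higher and 0.733% lower. The median difference of the 6 members was 0.19 without and 0.37 with Apcmin/+, beside -0.02 and -0.02 over all genes. These 2 comparisons share no array. The members were chosen with earlier results of these data known, so the counts describe them and are no test.

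**Figure D2:**
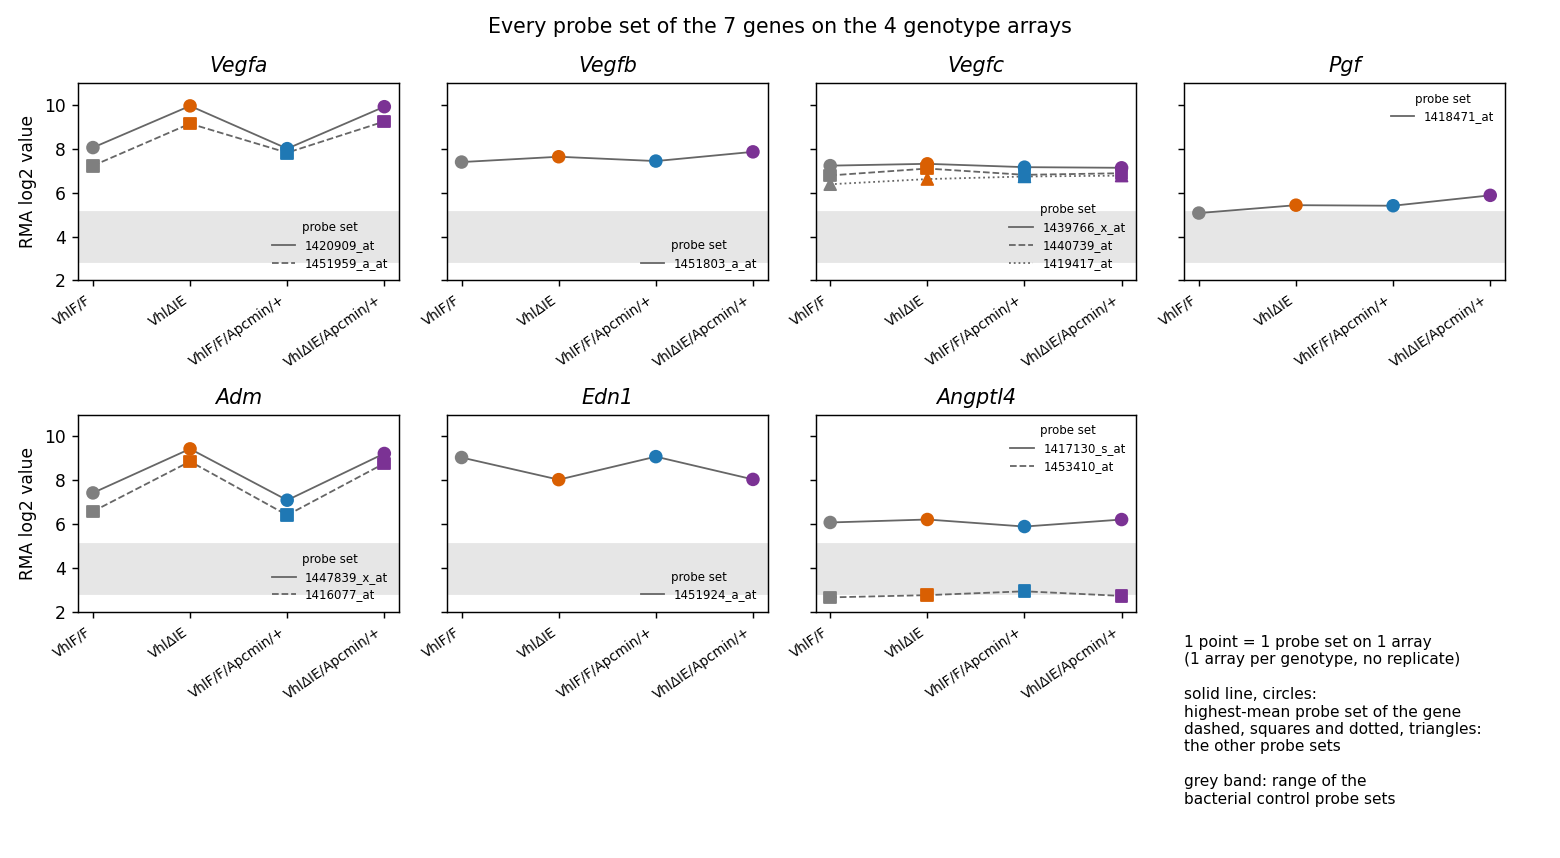
RMA log2 values (y axis) of all 12 probe sets of the 7 genes on the 4 genotype arrays (x axis). Each point is 1 probe set on 1 array, lines join the points of a probe set, circles with a solid line mark the probe set with the highest mean, and the grey band is the range of 27 bacterial control probe sets, 2.82 to 5.10. Both probe sets of Vegfa and of Adm are higher in both knockout arrays, Edn1 is lower in both, and Vegfb, Vegfc, Pgf and Angptl4 stay within 1 of their lowest value.

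Vegfa, the main growth factor for blood vessels, was measured by 2 probe sets. Probe set 1420909_at read 8.06 in VhlF/F, 9.96 in VhlΔIE, 8.01 in VhlF/F/Apcmin/+ and 9.92 in VhlΔIE/Apcmin/+. Both knockout arrays were thus far above both floxed arrays, and arrays of the same Vhl status were nearly level. The knockout was higher by 1.90 without and 1.91 with Apcmin/+, which is 3.73-fold and 3.76-fold. These were the 67th and 91st highest differences among the 11871 genes. Probe set 1451959_a_at, whose suffix marks probes shared by several transcripts of the gene, read 7.23, 9.15, 7.82 and 9.25 in VhlF/F, VhlΔIE, VhlF/F/Apcmin/+ and VhlΔIE/Apcmin/+. It had the same order of knockout over floxed arrays, with differences of 1.92 and 1.42, or 3.77-fold and 2.68-fold. The probe sets disagreed in the floxed arrays, where Apcmin/+ went with a difference of 0.59 in 1451959_a_at and of -0.05 in 1420909_at. The Vhl difference with Apcmin/+ minus that without it was therefore -0.49 in the former and 0.01 in the latter, which was not tested.

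Adm, which encodes the vessel-widening peptide adrenomedullin, was also measured by 2 probe sets. Probe set 1447839_x_at read 7.43 in VhlF/F, 9.44 in VhlΔIE, 7.10 in VhlF/F/Apcmin/+ and 9.22 in VhlΔIE/Apcmin/+. The knockout arrays lay above the floxed arrays by 2.01 without and 2.13 with Apcmin/+, or 4.02-fold and 4.37-fold, the 59th and 66th highest differences. The suffix of this probe set marks probes that can hybridise to other transcripts. Probe set 1416077_at, which carries no such suffix, read 6.58, 8.86, 6.42 and 8.77 in VhlF/F, VhlΔIE, VhlF/F/Apcmin/+ and VhlΔIE/Apcmin/+. Its differences were larger, 2.28 and 2.36, or 4.85-fold and 5.13-fold. Both probe sets were slightly lower with Apcmin/+, with differences of -0.33 and -0.17 between the floxed arrays and of -0.21 and -0.09 between the knockout arrays.

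Edn1, which encodes the vessel-constricting peptide endothelin 1, ran the opposite way. Its 1 probe set, 1451924_a_at, read 9.04 in VhlF/F, 8.03 in VhlΔIE, 9.08 in VhlF/F/Apcmin/+ and 8.04 in VhlΔIE/Apcmin/+. Both knockout arrays were below both floxed arrays, and arrays of the same Vhl status were within 0.04 of each other. The differences of -1.01 and -1.04 are 2.01-fold and 2.05-fold lower, the 185th and 165th lowest of the 11871 genes. They sit at the 2-fold threshold. After a further cyclic loess normalization they were -0.97 and -0.99, and Edn1 was then no longer counted as 2-fold lower. Endothelin 1 is best known as a product of endothelium, and in the same arrays all 15 endothelial markers were higher in the knockout, as given below. Which cells of the mucosa gave the Edn1 signal was not tested.

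The other members of the growth factor family had small differences. Vegfb, a ligand of the receptor Flt1, read 7.40 in VhlF/F, 7.64 in VhlΔIE, 7.44 in VhlF/F/Apcmin/+ and 7.86 in VhlΔIE/Apcmin/+. Its knockout arrays were the higher ones, by 0.24 and 0.42. Vegfc, the main growth factor of lymphatic vessels, had 3 probe sets, and the one with the highest mean, 1439766_x_at, read 7.23, 7.32, 7.16 and 7.14 in the same order of arrays. Its Vhl differences were 0.08 and -0.03, and the latter was 0.01 after cyclic loess. The other Vegfc probe sets differed by 0.31 and 0.07 for 1440739_at, which read 6.79, 7.10, 6.82 and 6.89, and by 0.24 and 0.04 for 1419417_at, which read 6.38, 6.62, 6.74 and 6.78. All 3 Vegfc probe sets stayed within 0.39 of their lowest value over the 4 arrays.

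Pgf and Angptl4 were dim. Pgf, placenta growth factor, another ligand of Flt1, read 5.07 in VhlF/F, 5.43 in VhlΔIE, 5.41 in VhlF/F/Apcmin/+ and 5.88 in VhlΔIE/Apcmin/+. The VhlF/F value lay just below the highest of the bacterial control probe sets, at 5.10, and the others above it. The median of those control probe sets was 3.23. Pgf differed by 0.36 and 0.47 for Vhl deletion and by 0.33 and 0.45 for Apcmin/+, so that the array with both changes was the highest. Every Pgf value was below the floor, and differences at this level give no reliable fold. Angptl4 probe set 1417130_s_at read 6.08, 6.22, 5.90 and 6.21 in VhlF/F, VhlΔIE, VhlF/F/Apcmin/+ and VhlΔIE/Apcmin/+. The Vhl differences were 0.14 and 0.32. Its other probe set, 1453410_at, read 2.67 to 2.95, within or below the range of the bacterial controls, and gives no level for the gene. Its Vhl differences were 0.10 and -0.21, and for Apcmin/+ with floxed Vhl it gave 0.28 where 1417130_s_at gave -0.19. At background level, the signs of 1453410_at give no direction for the gene.

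Among 6 other PPAR targets above the floor, 1 was higher in the knockout without Apcmin/+ and 5 were lower. The same counts held with Apcmin/+, but the higher gene was another one. Cd36 differed by 0.40 without and -0.25 with Apcmin/+, and Pdk4 by -0.36 and 0.45. The medians of the 6 were -0.17 and -0.21, beside -0.02 and -0.02 over all genes. The lipid droplet coat protein Plin2 differed by -0.15 and -0.38. Fabp1, a fatty acid binding protein of liver and small intestine, differed by -2.66 and -0.13, and read 7.80 in VhlF/F, where the hepatocyte markers were high, and 4.32 to 5.14 in the other arrays. Of 10 other HIF targets, 7 were at least 2-fold higher without and 6 with Apcmin/+, and all 10 differences were above 0 in both, with medians of 1.90 and 1.70. These targets were listed with their earlier results known. Egln3, which hydroxylates HIF alpha subunits, was higher by 3.67 and 3.03, and Ndufa4l2, a mitochondrial protein, by 5.76 and 5.52. Ankrd37 was higher by 4.49 and 3.65, the adenylate kinase Ak4 by 3.99 and 4.76 and Bnip3, a mitophagy receptor, by 2.37 and 1.98. Car9, a carbonic anhydrase, was higher by 1.40 and 1.42, and Pdk1, which blocks pyruvate entry into mitochondria, by 1.43 and 0.93.

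**Figure D3:**
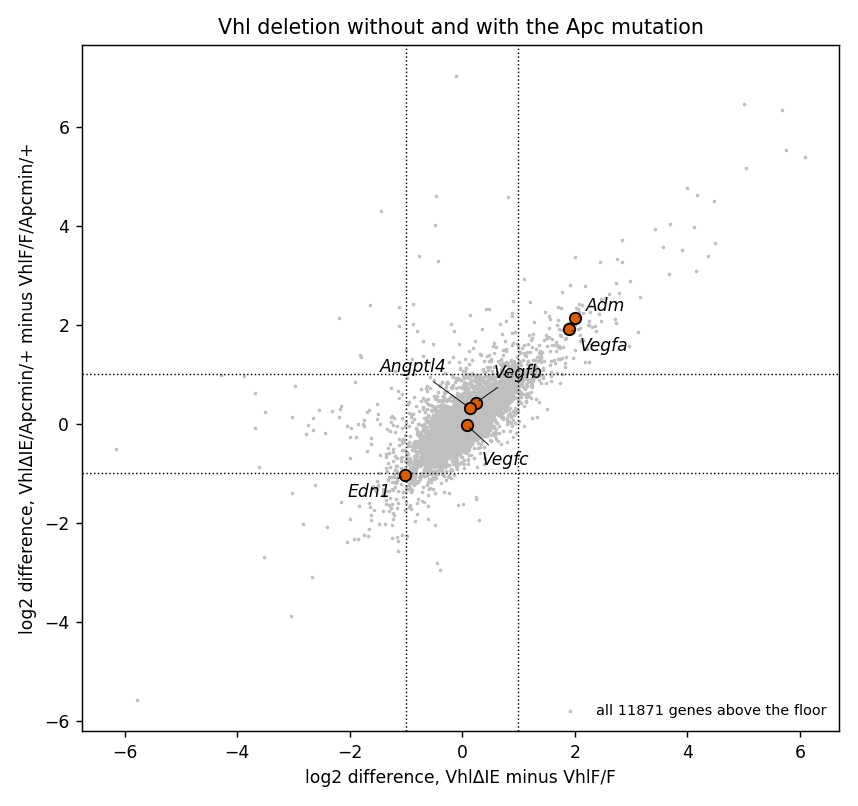
Log2 difference for Vhl deletion without Apcmin/+ (x axis) and with it (y axis) for the 11871 genes above the floor (grey) and the 6 members above it (orange). Dotted lines mark a 2-fold difference. Adm and Vegfa lie near 2 on both axes, Edn1 lies at the lower 2-fold lines, and Vegfb, Vegfc and Angptl4 lie within the main cloud.

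The Apcmin/+ allele went with no 2-fold difference in any member. With floxed Vhl, 0 of 6 members were higher, against 0.118% of all genes, and 0 were lower, against 0.901%. With deleted Vhl, 0 were higher, against 0.202%, and 0 lower, against 0.118%. In the probe sets with the highest mean of these 6 members, the differences with floxed Vhl ran from -0.33 for Adm to 0.05 for Vegfb. Those with deleted Vhl ran from -0.21 for Adm to 0.22 for Vegfb. Pgf, which was below the floor, differed by 0.33 with floxed and 0.45 with deleted Vhl. Each of these comparisons shares an array with each Vhl comparison.

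Of the 5 receptors and co-receptors of the growth factors, Flt1, Kdr and Nrp1 were at least 2-fold higher in both knockout arrays, and Flt4 and Nrp2 were not. Flt1, a receptor for Vegfa, Vegfb and Pgf, read 6.61 in VhlF/F, 8.07 in VhlΔIE, 6.43 in VhlF/F/Apcmin/+ and 8.12 in VhlΔIE/Apcmin/+, which was higher by 1.46 and 1.69 in the knockout. Kdr, the main signalling receptor for Vegfa, read 7.49, 8.66, 7.49 and 8.76, with differences of 1.18 and 1.27. The co-receptor Nrp1 read 8.09, 9.33, 8.07 and 9.15, with differences of 1.24 and 1.07. In each of these 3 genes both knockout arrays lay above both floxed arrays by at least 2-fold. Flt4, the receptor for Vegfc on lymphatic endothelium, differed by 0.41 and 0.17, and Nrp2, a co-receptor for Vegfc, by -0.32 and 0.64. The medians of the 5 were 1.18 and 1.07. None of 5 other ligands of the VEGF and PDGF family was 2-fold apart, and their medians were 0.27 and 0.23. Of these, Pdgfa differed by -0.05 and 0.04, Pdgfb by 0.44 and 0.51 and Pdgfc by 0.27 and 0.56.

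Tek, the angiopoietin receptor Tie2, read 5.75 in VhlF/F, 7.18 in VhlΔIE, 5.90 in VhlF/F/Apcmin/+ and 6.87 in VhlΔIE/Apcmin/+. Its differences were 1.43 and 0.97, and it passed the floor in the knockout arrays alone. The related receptor Tie1 differed by 1.23 and 0.65, from floxed values of 4.87 and 5.13 at or near the bacterial controls, and passed the floor in VhlΔIE alone, at 6.10. Their ligands Angpt1 and Angpt2 stayed below the floor in all 4 arrays, at most 5.83 and 5.63. Among 8 other angiogenic factors above the floor, Esm1, which encodes an endothelial proteoglycan, read 4.39, 7.56, 4.27 and 6.82, with differences of 3.17 and 2.55. It lay within the range of the bacterial controls in both floxed arrays, so its fold is understated. Aplnr, the apelin receptor, was higher by 1.45 and 1.27, while its ligand Apln differed by 0.29 and 0.55. Of 4 angiogenesis inhibitors, Col18a1, the collagen from which endostatin is cut, was higher by 1.01 and 0.91, and Thbs1 and Serpinf1 differed by 0.20 and 0.08 and by -0.24 and -0.35.

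For adrenomedullin, the receptor Calcrl works with Ramp2 or Ramp3, while Ramp1 turns it into a receptor for the peptide CGRP. Calcrl read 7.55 in VhlF/F, 8.52 in VhlΔIE, 7.33 in VhlF/F/Apcmin/+ and 8.06 in VhlΔIE/Apcmin/+. Its differences were 0.96 and 0.73. Ramp2 was higher by 0.92 and 0.93 and Ramp3 by 0.83 and 0.67, whereas Ramp1 differed by -0.65 and -0.55. The related peptide gene Adm2, which passed the floor in the knockout arrays alone, differed by 0.64 and 0.67. The scavenging receptor Ackr3 differed by 0.64 and 0.20. None of the 6 was 2-fold apart, although Calcrl without Apcmin/+ passed 2-fold after cyclic loess, and the medians were 0.74 and 0.67.

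For endothelin, 5 of 6 listed genes had a probe set with a single symbol, and these 5 were above the floor. The receptor among them was Ednrb, which differed by 0.75 and 0.45. Edn2, a second endothelin gene, read 8.23 in VhlF/F, 6.95 in VhlΔIE, 7.55 in VhlF/F/Apcmin/+ and 7.40 in VhlΔIE/Apcmin/+. Its Vhl differences were -1.29 without and -0.15 with Apcmin/+, so unlike Edn1 its floxed arrays were not level. Edn3 differed by 0.00 and 0.05. The endothelin-converting enzymes Ece1 and Ece2, which cut the precursors, differed by -0.44 and -0.07 and by -0.08 and -0.08. Over 5 genes the medians were -0.08 and -0.07. None of 9 genes of vascular tone was 2-fold apart, with medians of 0.27 and -0.01, among them Pde5a at -0.18 and -0.15, Nos1 at -0.14 and -0.34 and Ace, which makes angiotensin II, at 0.88 and 0.68.

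The lipase that Angptl4 inhibits differed between the backgrounds. Lpl, lipoprotein lipase, read 10.31 in VhlF/F, 9.88 in VhlΔIE, 9.00 in VhlF/F/Apcmin/+ and 12.29 in VhlΔIE/Apcmin/+. The array with both changes stood above the others, and the Vhl differences were -0.43 and 3.30. Gpihbp1, which anchors the lipase to capillary endothelium, was higher by 0.89 and 0.87. Adipocytes also express Lpl, and of 4 adipocyte markers 1 was at least 2-fold higher with Apcmin/+, Cidec at 1.63, and their medians were 0.26 and 0.73. The adipocyte markers averaged 7.61 in VhlF/F, 7.86 in VhlΔIE, 6.62 in VhlF/F/Apcmin/+ and 7.47 in VhlΔIE/Apcmin/+. The part of adipocytes in the Lpl values was not tested. Among angiopoietin-like relatives, Angptl1 differed by 0.77 and 0.53 and Angptl6 by -0.16 and -0.05.

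**Figure D4:**
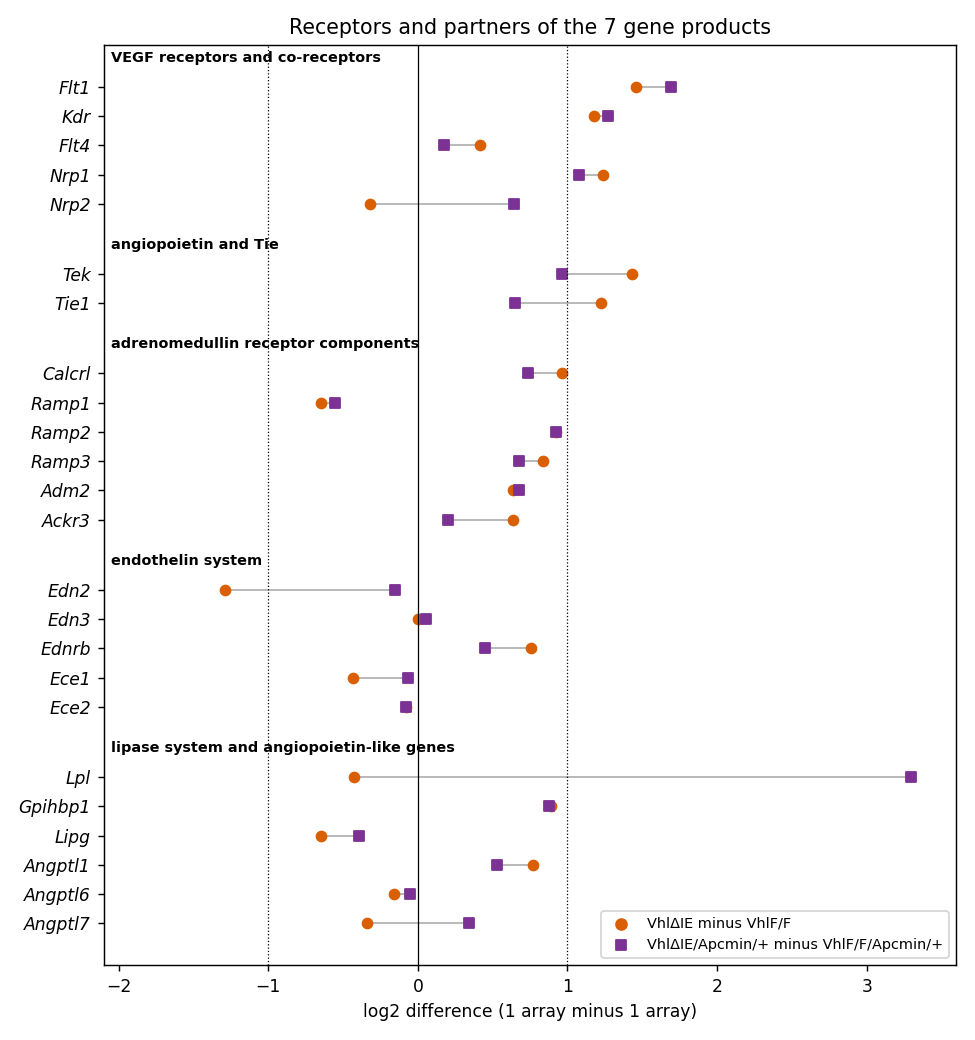
Log2 difference for Vhl deletion (x axis) of the measured receptors, enzymes and partners of the 7 gene products, with orange circles for VhlΔIE minus VhlF/F and purple squares for VhlΔIE/Apcmin/+ minus VhlF/F/Apcmin/+. Each symbol is 1 array minus 1 array, and dotted lines mark a 2-fold difference. Flt1, Kdr and Nrp1 lie beyond the upper line in both, Calcrl, Ramp2 and Ramp3 lie between 0.67 and 0.96, and Lpl lies at -0.43 and 3.30.

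Markers of endothelium moved with these receptors. All 15 were higher in the knockout in both comparisons, with medians of 0.87 and 0.73, beside -0.02 and -0.02 over all genes. At least 2-fold higher were 5 of them without Apcmin/+, against 2.27% of all genes, and 4 with it, against 2.82%. The mean log2 value of the 15 was 6.70 in VhlF/F, 7.72 in VhlΔIE, 6.85 in VhlF/F/Apcmin/+ and 7.65 in VhlΔIE/Apcmin/+. Emcn was higher by 2.25 and 2.00, Sox18 by 1.56 and 1.18 and Plvap by 1.39 and 1.38. Cdh5 was higher by 1.14 and 0.81, Vwf by 1.01 and 0.69 and Egfl7 by 0.73 and 1.06. Cdh5, Erg and Sox17 lay below the floor in both floxed arrays, Cdh5 at 5.46 and 5.79, and passed it through the knockout arrays alone. The part of the endothelial markers in the receptor values was not tested. Of 3 lymphatic markers above the floor, 0 were 2-fold apart, and their medians were 0.72 and -0.15. Lyve1 differed by 0.96 and -0.19, Reln by 0.72 and -0.15 and Pdpn by 0.52 and 0.31. Of 8 smooth muscle and pericyte markers 0 were 2-fold apart, with medians of -0.33 and -0.33, and Tagln, Acta2 and Myh11 differed by -0.40, -0.25 and -0.62 without and by -0.52, -0.27 and -0.38 with Apcmin/+. The pericyte markers Pdgfrb, Rgs5 and Cspg4 differed by 0.38, -0.18 and -0.13 without and by 0.53, 0.73 and 0.13 with Apcmin/+. Of 7 macrophage markers, Itgam, which lay within the range of the bacterial controls in both floxed arrays, was higher by 2.18 and 1.25, and C1qb by 1.22 and 0.52, and the medians were 0.82 and 0.42. Their part in the Vegfa and Adm values was not tested. The Vhl differences of Vegfa, Adm and Edn1 with Apcmin/+ were 1.91, 2.13 and -1.04 in the probe sets with the highest mean. Without Apcmin/+ they were 1.90, 2.01 and -1.01. In the other Vegfa probe set they were 1.42 with and 1.92 without Apcmin/+. The part of the high hepatocyte markers of the VhlF/F array in these values was not tested.

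The genes whose 4 values ran most like those of a member were sought among 862 genes that spanned at least 1 on the log2 scale, by the Euclidean distance between values centred on each gene's own mean. With 4 arrays, 1 per genotype, such likeness is a description. Nearest to Vegfa were Osmr, the receptor for oncostatin M, at a distance of 0.06, the cytochrome Cyp2s1 at 0.09, the glutamine transporter Slc38a1 at 0.11, the collagen prolyl hydroxylase subunit P4ha1 at 0.12 and the oxidase Ero1a at 0.16. Osmr read 7.11, 8.93, 7.05 and 8.93 in VhlF/F, VhlΔIE, VhlF/F/Apcmin/+ and VhlΔIE/Apcmin/+. Nearest to Adm were Sgo2a, which guards sister chromatid cohesion, at 0.14, Ppp2r3a at 0.17, the mitotic checkpoint kinase Bub1 at 0.19, Dcaf17 at 0.20 and Abtb2 at 0.23. These share with Adm slightly lower values with Apcmin/+ in both pairs of arrays. Nearest to Edn1 were Sfxn3, a mitochondrial transporter, at 0.04, Pdp2 at 0.08, Scel at 0.09, Aldh1b1 at 0.10 and the potassium channel subunit Kcne3 at 0.11. Sfxn3 read 8.10, 7.04, 8.12 and 7.10.

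**Figure D5:**
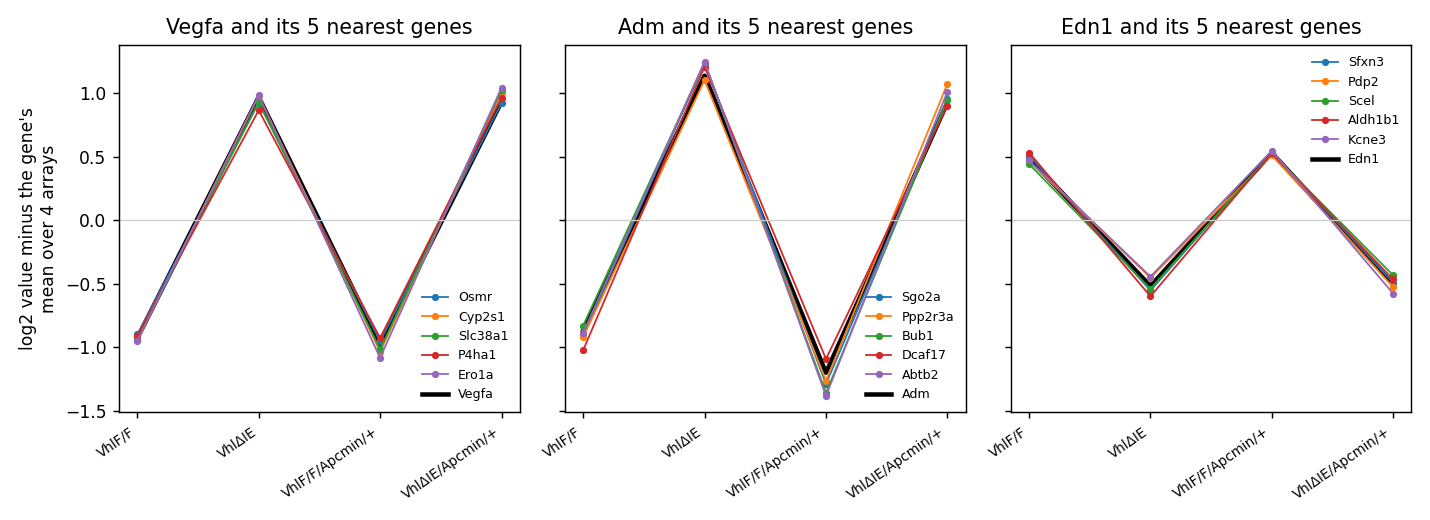
Log2 values minus each gene's own mean over the 4 arrays (y axis) for Vegfa, Adm and Edn1 (black) and the 5 genes nearest to each (colours), by genotype (x axis). Each point is 1 array. The knockout arrays lie above the floxed arrays for Vegfa and Adm and their nearest genes, and below them for Edn1 and its nearest genes.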

How the data were processed

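Expression was measured with 1 array for each of 4 genotypes. The submitters' processing notes name affy and RMA for the deposited log2 values. RMA corrects background, quantile-normalizes arrays and summarises probes by median polish. The versions and the set of arrays normalized jointly are not stated in the labels. Gene symbols came from the platform annotation, in which 34958 of 45101 probe sets have 1 symbol, 932 several and 9211 are not listed. Each gene took its highest-mean probe set, and 11871 of 18194 genes passed the floor of 6 on any array. Called means at least 2-fold. No p-value was computed, because no genotype has a replicate. The members and the 20 lists were chosen with earlier results of these data known. Of each list, genes 2-fold apart in either Vhl comparison were named, and in lists without one the 3 with the highest mean. The clock list is given by medians and its lowest and highest genes. The hepatocyte list is given by means and Alb and the sex-linked list by 2 genes. Other list members were named for their role after their values were seen. For each member spanning at least 1, the 5 nearest genes were named, clone and predicted symbols passed over. Alternatives were the mean over probe sets, no probe sets that can cross-hybridise (_x_at, _s_at), no floor, a floor of 7, values under 6 raised to 6, cyclic loess and a 1.5-fold threshold. Counting was tested on simulated data. Cyclic loess was run with limma 3.58.1 in R 4.3.3, and all else with pandas 2.3.3, numpy 2.4.6 and matplotlib 3.10.9 in Python 3.11.15.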

Additional observations from a re-analysis of the deposited data

Results flagged for a closer look

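Vegfc, measured by the probe set with the highest mean, differed in opposite directions in the 2 Vhl comparisons, by 0.083 without and by -0.029 with Apcmin/+. The difference between the backgrounds was not tested. The other Vegfc probe sets differed by 0.31 and 0.24 without and by 0.07 and 0.04 with Apcmin/+, and after cyclic loess the highest-mean probe set gave 0.13 and 0.01.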

How the results depend on the processing

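Under the 7 alternatives, Vegfa and Adm were called higher in both Vhl comparisons each time, and no member was called for Apcmin/+, with 1 value per gene. Taken alone, Vegfa probe set 1451959_a_at was 1.51-fold higher with Apcmin/+ and floxed Vhl, past the 1.5-fold threshold. Without probe sets that can cross-hybridise, Angptl4 differed by -0.21 for Vhl deletion with Apcmin/+ and by 0.28 for Apcmin/+ with floxed Vhl. These values come from probe set 1453410_at, which was at background and gives no level for the gene. Edn1 was called lower under 6 alternatives and not under cyclic loess, where it differed by -0.97 and -0.99 and 2 members were called in place of 3. Vegfa ranged from 1.90 to 1.94 without and from 1.67 to 1.96 with Apcmin/+, and Adm from 2.01 to 2.28 and from 2.13 to 2.36. At a 1.5-fold threshold, 6.22% of genes were higher and 5.08% lower without Apcmin/+, and 7.19% and 5.15% with it. Cyclic loess also took Calcrl, Erg, Eng and Lyve1 past 2-fold without and Alb with Apcmin/+, and moved the median of vascular tone genes with Apcmin/+ from -0.01 to 0.04. Pgf entered when no floor was set and was not called. Dim signal limits Pgf and Angptl4. No paired analysis was possible because the labels number no replicates and each genotype has 1 array, and an additive fit of Vhl and Apc status, which would treat arrays of different genotype as replicates, was not run.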
